A study of Drosophila melanogaster with 33 samples.

Results

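The ecdysone response genes were 34 genes of the 16727 in the count tables, taken by symbol from a list of the ecdysone receptor, its cofactors and the genes it controls, with no threshold on a measured value, although the list was drawn up with earlier results of these data known. All 34 symbols were found: 8 for the receptor complex and its cofactors, 12 for early and early-late regulators, 8 for other early inducible products and 6 for late and tissue effectors. Hr46 is the gene now called Hr3, Eip55E is now Cth and Eip71CD is now MsrA. A filter on low counts left 33 of the 34 in the test of the MARCM libraries and 32 in the test of the other models. Edg84A, which had no more than 1 count in any library, was tested in neither, and Eip63F-1 was tested in the MARCM libraries alone.

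Ecdysone is the steroid hormone of insect moulting and metamorphosis. Its active form binds a heterodimer of the nuclear receptors EcR and Usp, which switches on early genes, many of them transcription factors, and these in turn regulate early-late and late genes. The early-late nuclear receptor Hr46 turns on ftz-f1, while the repressor Blimp-1 holds ftz-f1 off until hormone levels fall. In imaginal discs, the larval epithelia that form adult structures, pulses of ecdysone late in larval life accompany the start of eversion and differentiation, and the ImpE genes were named as ecdysone-inducible messages of discs. Warts (wts) is the Hippo pathway kinase that keeps the co-activator Yorkie (Yki) inactive, and Scalloped (sd) is the DNA-binding partner of Yki.

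Eye-antennal discs of Drosophila melanogaster were collected 5 days after egg laying at 25 °C, at least 30 discs pooled per library, and the 3' ends of transcripts were counted in 33 libraries. The eyFLP wts- discs (2 libraries, y w ey-FLP/y w, with FRT82B cl- over FRT82B wts149) had wts mutant clones made by a recombinase driven from the eyeless promoter, with a cell-lethal chromosome against the non-mutant sister cells, and eyFLP ctrl discs (3 libraries) carried the same elements without wts149. The optix yki3SA discs (2 libraries, w/y v; optix-Gal4/+; UAS-yki3SA/+) expressed yki3SA, an activated Yki, where the optix driver is on, and optix ctrl discs (3 libraries) expressed UAS-lucRNAi, a hairpin against luciferase. MARCM marks mitotic clones that lose the Gal4 inhibitor Gal80, so that only clone cells express the UAS transgenes. It gave MARCM yki3SA (6 libraries), MARCM yki3SA sd- (5), MARCM sd- (5) and MARCM ctrl (7). All 4 carried ey-FLP, a tub-Gal80 chromosome and UAS-GFP. In sequencing run 1, all 4 used FRT19A and the Act 5C<y+<Gal4 driver, with sd47M in the sd- groups and UAS-yki3SA in the yki3SA groups. In run 2, the sd- and yki3SA sd- libraries (2 each) kept that make-up, whereas the yki3SA library (1) and the ctrl libraries (2) used FRT42D and tub-Gal4. Within run 2, loss of sd therefore cannot be told apart from the change of chromosome arm and driver. No sorting of clone cells is described, so each library mixed clone and other cells, and fewer cells of a type and less RNA per cell cannot be told apart. No label says that the replicates came from separate crosses, so p-values measure the spread between these libraries.

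Libraries held 4874192 to 19128356 counts, and levels are given below as CPM, which are counts scaled to a common library size with TMM factors. Run 2 libraries, labelled as total RNA where run 1 libraries were labelled as polyA RNA, stood apart from run 1 for some members, so levels are given by run. All 8 eye disc markers were detected in every library, with a sum of 375.5 to 491.5 CPM in wts- discs against 1375 to 1502 CPM in their controls, 1052 to 1105 CPM in optix yki3SA discs against 1316 to 1376 CPM, and 379 to 440.9 CPM in MARCM yki3SA discs against 1228 to 1333 CPM in run 1. Of 5 antennal disc markers, 4 were lower in wts- discs, 2 in optix yki3SA discs and 5 in MARCM yki3SA discs. Their sum was 4005 to 4195 CPM in wts- discs against 4198 to 5363 CPM, and 3183 to 3979 CPM in MARCM yki3SA discs against 4537 to 5305 CPM in run 1. In optix yki3SA discs the sum was higher, at 5635 to 5739 CPM against 4402 to 5127 CPM in optix ctrl discs, although 0 of the 5 were called higher. Over all libraries hth reached 5534 CPM and no other antennal marker more than 168.6 CPM, so these sums mostly reflect hth. Hemocyte markers were lower in MARCM yki3SA discs for 6 of 7 tested, with a sum of 14.08 to 23.69 CPM against 82.5 to 114.8 CPM in run 1, and for 4 of 6 in optix yki3SA discs and 0 of 6 in wts- discs. The 5 tracheal markers summed to 1165 to 1315 CPM in wts- discs against 451.1 to 494.8 CPM (1 called, higher) and to 1434 to 1905 CPM in MARCM yki3SA discs against 383.4 to 565.1 CPM in run 1 (2 higher, 1 lower). Over all libraries serp and verm reached 1760 and 2120 CPM and no other tracheal marker more than 40.31 CPM. The part of these markers in the results below was not tested. Tags of yki averaged 5.89 ± 3.65 CPM in yki3SA sd- discs of run 1 against 44.3 ± 37.3 CPM in sd- discs (SD, n = 3 each), 52.5 ± 14.4 CPM in MARCM yki3SA discs of run 1 against 36.7 ± 17.8 CPM in MARCM ctrl discs (SD, n = 5 each), and 31.4 ± 28.9 CPM in optix yki3SA discs (n = 2) against 8.75 ± 9.83 CPM in optix ctrl discs (n = 3). The single run 2 yki3SA library had 2081 CPM, against 64.9 ± 1.72 CPM in its 2 controls. The yki tags thus went against the label of the run 1 libraries labelled yki3SA sd-, although 1 of the 3 sd- libraries was lower still, at 1.37 CPM. In run 2 the libraries labelled yki3SA sd- had 97.98 to 108.6 CPM of yki against 63.27 to 64.25 CPM in sd- discs, the direction of the label. A UAS transgene need not carry the 3' end that is counted as yki, so these tags do not settle what a library expressed. Tags of wts were not lower in wts- discs (249 ± 23.4 CPM, n = 2, against 169.7 ± 5.64 CPM in their controls, SD, n = 3), and tags of sd averaged 327 ± 55.6 CPM in sd- discs (SD, n = 3) against 416 ± 32.4 CPM in MARCM ctrl discs of run 1 (n = 5). A transcript can persist in a mutant allele, so neither checks a label. Of the sd- libraries of run 1, replicate 3 stood apart from replicates 1 and 2, for example with 0.760 CPM of Eip71CD against 24.3 and 28.8 CPM, and results that rest on the sd- groups are given by run as well.

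Activation of Yki was accompanied by lower levels of an early-late set (Hr46, Hr4, Blimp-1, Eip75B, Eip78C), of ImpE1, ImpE2, ImpE3 and of Sb, and by higher levels of EcR, ftz-f1 and the ecdysone-inactivating enzyme gene Cyp18a1, both in wts- discs and in MARCM yki3SA discs. In wts- discs, 14 of 32 members passed an adjusted p of 0.05 in edgeR's quasi-likelihood test, 4 higher and 10 lower (43.8%), where 24% of all 8693 genes tested passed, 10.6% higher and 13.5% lower. In MARCM yki3SA discs, 14 of 33 members passed, 3 higher and 11 lower (42.4%), where 34.4% of 8927 genes passed, 17.3% higher and 17.1% lower. That near-even split over all genes, 1542 higher and 1528 lower, was 1107 higher and 1791 lower with upper-quartile scaling, which moved the median change of all genes to -0.03 from 0.08 on the log2 scale. The members' split of 3 and 11 was the same under both scalings. In optix yki3SA discs, 6 of 32 members passed, 4 higher and 2 lower (18.8%), near the 19.5% of all genes (9.02% higher, 10.5% lower). The median log2 change of the members was -0.54 in wts- discs, -0.44 in MARCM yki3SA discs and -0.14 in optix yki3SA discs, beside -0.01, 0.08 and 0.03 over all genes tested.

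Of the 14 members called in wts- discs and the 14 called in MARCM yki3SA discs, 13 were shared with the same direction, 92.9% of each list: Blimp-1, Cyp18a1, EcR, Eip75B, Eip78C, Fbp1, Hr4, Hr46, ImpE1, ImpE2, ImpE3, Sb and ftz-f1. The overlap over all genes was not computed, here or for the optix model below. Whether these shares are particular to the members is therefore not known. No member passed when the change in MARCM yki3SA discs was tested against the change in wts- discs (0 of 32 by edgeR, 5 at an unadjusted p under 0.05, and 2 by DESeq2, ImpE3 and Sb), where 8.51% of all genes passed (4.92% above 0 and 3.59% below). The optix model shared 4 calls with wts- discs (EcR, ImpE3, ftz-f1 and vri, 28.6% of the wts- calls and 66.7% of the optix calls) and 4 with MARCM yki3SA discs (EcR, Edg91, ImpE3 and ftz-f1). Members without a call in any of these comparisons or those with sd below were tai, rig, Met, Hr38, Hr78, Eip74EF, Hr39, E23, crol, Eip71CD, Eip63F-1 and Fbp2.

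**Figure D1:**
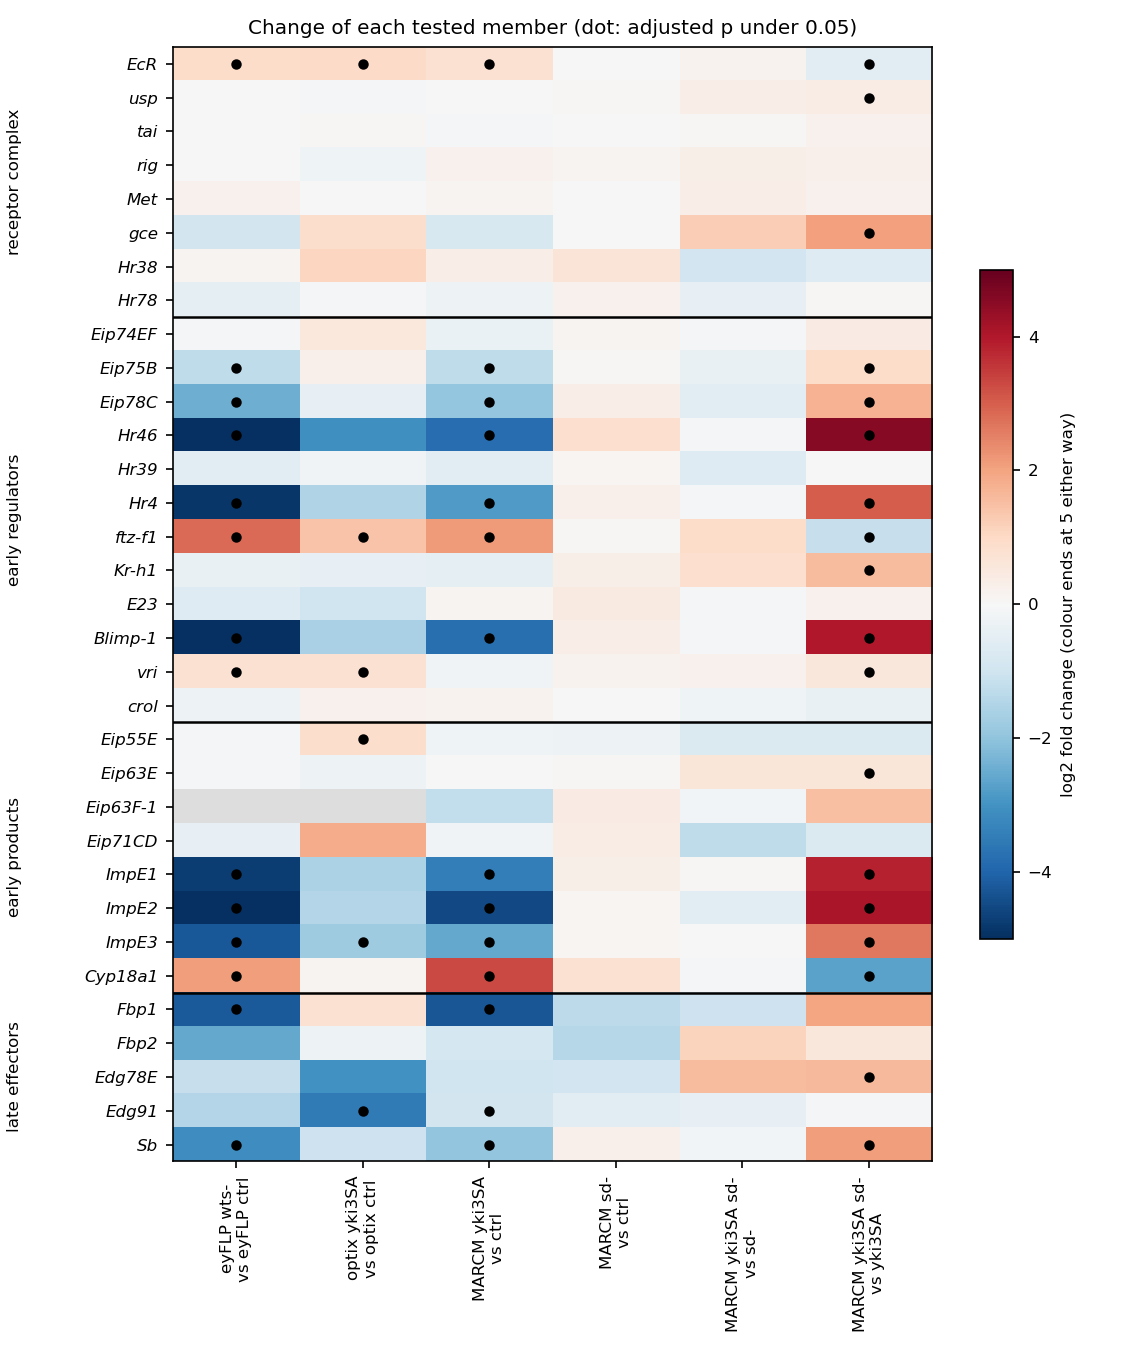
Log2 fold changes of 33 members (rows, by role) in 6 comparisons (columns), with the colour scale ending at 5 in either direction, dots for an adjusted p under 0.05 and grey for not tested. The wts- and MARCM yki3SA columns share 13 calls of one direction, and the sd- and yki3SA sd- against sd- columns hold no dot.

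Among the 8 genes of the receptor complex, EcR rose in all 3 models and the others did not pass. EcR, the hormone-binding receptor subunit, had 220.1 and 216 CPM in wts- discs against 125, 129 and 94.8 CPM in eyFLP ctrl discs. Optix yki3SA discs had 167 and 255 CPM against 129, 89.3 and 104 CPM in optix ctrl discs. In discs with MARCM yki3SA it had 153, 145, 157, 144 and 154 CPM, against 88.4, 126, 106, 106 and 93.4 CPM in MARCM ctrl discs of run 1. Every Yki-activated library lay above every library of its own control, in both runs. In run 2 EcR had 189 CPM in the yki3SA library against 75.3 and 84.8 CPM in the ctrl libraries. The log2 fold changes were 0.90 ± 0.17 (SE, edgeR adjusted p = 0.000319) with loss of wts, 0.96 ± 0.17 (SE, edgeR adjusted p = 0.000292) with optix yki3SA and 0.75 ± 0.11 (SE, edgeR adjusted p = 6.14e-06) with MARCM yki3SA.

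The partner of EcR, usp, the fly homologue of the vertebrate RXR receptors, had 42.6 and 40.4 CPM in wts- discs against 39.3, 41.6 and 44.2 CPM in eyFLP ctrl discs. Optix yki3SA discs had 44.7 and 38.0 CPM against 38.1, 52.0 and 44.4 CPM in optix ctrl discs. With MARCM yki3SA the level was 36.9, 43.9, 38.6, 36.7 and 35.7 CPM, against 39.6, 44.7, 38.6, 38.8 and 38.9 CPM in MARCM ctrl discs of run 1. These groups overlapped in each model. Its log2 change was -0.01 in wts- discs with an interval of 2 SE of -0.29 to 0.27, -0.11 (-0.39 to 0.17) in optix yki3SA discs and 0.02 (-0.21 to 0.24) in MARCM yki3SA discs, so a change of the size seen for EcR lies outside these intervals in each model. The coactivator gene tai had log2 changes of -0.02, 0.06 and -0.12 in the wts-, optix and MARCM comparisons. The receptor cofactor gene rig, at -0.03, -0.20 and 0.20, and Met, which encodes a juvenile hormone receptor, at 0.22, 0.00 and 0.14 also did not pass. Hr78, an orphan nuclear receptor, had -0.51, -0.08 and -0.25. The paralogue of Met, gce, and the orphan receptor Hr38, which can pair with Usp, were sparse. Over its libraries, no group averaged more than 6.17 CPM of gce or 1.35 CPM of Hr38.

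Of the 12 early and early-late regulators, 7 passed in wts- discs (2 higher, 5 lower), 6 in MARCM yki3SA discs (1 higher, 5 lower) and 2 in optix yki3SA discs (both higher). The 5 that fell in both wts- and MARCM yki3SA discs were the nuclear receptor genes Hr46, Hr4, Eip75B and Eip78C and the zinc finger repressor gene Blimp-1. Hr46 had 1.54 and 0.688 CPM in wts- discs against 23.01, 26.2 and 93.1 CPM in eyFLP ctrl discs. MARCM yki3SA discs had 1.88, 0.728, 1.90, 6.75 and 2.27 CPM against 17.2, 21.0, 14.9, 44.03 and 43.9 CPM in MARCM ctrl discs of run 1. The groups did not overlap in either model, although the controls themselves spread about 4.04-fold in the eyFLP model. The change was -5.40 ± 1.45 (SE, edgeR adjusted p = 0.0116) in wts- discs and -3.79 ± 0.57 (SE, edgeR adjusted p = 1.17e-05) in MARCM yki3SA discs. In run 2 the yki3SA library had 0 counts of Hr46 against 29.2 and 38.4 CPM in the ctrl libraries, at least 274-fold lower when the floor is set at 3 counts in that library. Without either of the 2 wts- libraries, the wts- call of Hr46 was lost, with adjusted p up to 0.118, and with only the eyFLP groups in the fit it was 0.0713.

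Hr4, which encodes an orphan receptor of the prepupal cascade, had 12.5 and 11.5 CPM in wts- discs against 198, 253 and 593 CPM in eyFLP ctrl discs. It had 40.0, 33.3, 37.8, 82.5 and 47.7 CPM in MARCM yki3SA discs of run 1 against 285, 204, 228, 408 and 393 CPM in MARCM ctrl discs, and 4.78 CPM against 119 and 147 CPM in run 2. In both of these models, all Yki-activated libraries were below all of their controls. The log2 fold change was -4.86 ± 1.06 (SE, edgeR adjusted p = 0.00259) in wts- discs and -2.83 ± 0.32 (SE, edgeR adjusted p = 2.24e-07) in MARCM yki3SA discs. The 3' end of Hr4 overlaps PIG-K on the opposite strand, and the strand setting of the counts is not given.

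Blimp-1 had 11.3 and 4.59 CPM in wts- discs against 232, 299 and 546 CPM in eyFLP ctrl discs. In discs with MARCM yki3SA it had 25.6, 9.59, 7.79, 42.9 and 29.6 CPM, against 278, 199, 234, 369.8 and 342 CPM in MARCM ctrl discs of run 1. In run 2 the yki3SA library had 0.124 CPM, against 61.2 and 106 CPM in the ctrl libraries. The lowest control was above the highest Yki-activated library in both of these models and in each run. The changes were -5.50 ± 0.95 (SE, edgeR adjusted p = 0.000331) in wts- discs and -3.76 ± 0.51 (SE, edgeR adjusted p = 3.03e-06) in MARCM yki3SA discs, and the wts- change stayed called without each library in turn.

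The gene ftz-f1, a competence factor of the prepupal stage, is turned on by Hr46 and repressed by Blimp-1. It rose in wts- and MARCM yki3SA discs, where both fell, and a link between these changes was not tested. The level of ftz-f1 was 244 and 246 CPM in wts- discs against 42.2, 41.8 and 19.6 CPM in eyFLP ctrl discs. Optix yki3SA discs had 145 and 148 CPM against 91.8, 41.9 and 28.2 CPM in optix ctrl discs. With MARCM yki3SA the level was 129.6, 151, 158, 109 and 103 CPM, against 45.5, 52.9, 42.9, 25.1 and 24.3 CPM in MARCM ctrl discs of run 1. No Yki-activated library overlapped its controls, in either run. In run 2 ftz-f1 had 71.1 CPM in the yki3SA library against 9.40 and 8.05 CPM in the ctrl libraries. Within both the MARCM ctrl and the MARCM yki3SA group of run 1, replicates 4 and 5 were lower in ftz-f1 and higher in ImpE2 than replicates 1 to 3. The log2 fold changes of ftz-f1 were 2.83 ± 0.44 (SE, edgeR adjusted p = 0.000103), 1.43 ± 0.43 (SE, edgeR adjusted p = 0.0268) and 2.12 ± 0.26 (SE, edgeR adjusted p = 6.72e-07) in the wts-, optix and MARCM comparisons. The optix call was lost without either optix yki3SA library or without control replicate 2 or 3, with log2 fold changes of 1.12 to 1.45 and edgeR adjusted p of 0.0594 to 0.125.

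Eip75B, which encodes a haem-binding nuclear receptor, had 158 and 192 CPM in wts- discs against 403, 404 and 451 CPM in eyFLP ctrl discs. In run 1 it had 139, 126, 103, 169 and 179.8 CPM in MARCM yki3SA discs against 292, 292, 314, 389.9 and 387 CPM in MARCM ctrl discs. In run 2 it had 31.0 CPM in the yki3SA library against 180.3 and 203 CPM in the ctrl libraries. In these 2 models the groups did not overlap within either run. The changes were -1.27 ± 0.33 (SE, edgeR adjusted p = 0.0075) in wts- discs and -1.25 ± 0.30 (SE, edgeR adjusted p = 0.00218) in MARCM yki3SA discs. The orphan receptor gene Eip78C had 27.1 and 17.7 CPM in wts- discs against 105, 119.6 and 144 CPM in eyFLP ctrl discs. MARCM yki3SA discs had 25.6, 8.25, 7.41, 37.4 and 36.4 CPM against 69.6, 60.9, 68.7, 96.9 and 93.8 CPM in MARCM ctrl discs of run 1. Its yki3SA library of run 2 had 0.247 CPM, against 31.0 and 44.8 CPM in the ctrl libraries, and again the groups of these models did not overlap. Eip78C changed by -2.46 ± 0.62 (SE, edgeR adjusted p = 0.0075) in wts- discs and -1.92 ± 0.51 (SE, edgeR adjusted p = 0.00485) in MARCM yki3SA discs. The wts- call of Eip75B was lost without wts- replicate 1 (adjusted p = 0.115) and in a fit of all 33 libraries (0.0816), and that of Eip78C without wts- replicate 2 (0.107).

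The basic leucine zipper gene vri, an early gene that also acts in the circadian clock, rose in wts- discs (55.4 and 75.8 CPM, against 47.7, 40.7 and 27.1 CPM in eyFLP ctrl discs) and in optix yki3SA discs (84.6 and 109 CPM, against 72.6, 51.1 and 46.3 CPM in optix ctrl discs). Neither pair of groups overlapped, and the changes were 0.77 ± 0.25 (SE, edgeR adjusted p = 0.0266) and 0.77 ± 0.24 (SE, edgeR adjusted p = 0.0309). In MARCM yki3SA discs of run 1 it had 52.6, 42.6, 35.0, 46.8 and 43.6 CPM, inside the 35.0 to 60.3 CPM of MARCM ctrl discs, with a change of -0.19 ± 0.19 (SE, edgeR adjusted p = 0.501). The wts- call was lost without eyFLP ctrl replicate 3 or wts- replicate 2, and the optix call without optix ctrl replicate 2 or 3 or optix yki3SA replicate 2. The other 5 regulators did not pass in any of these 3 comparisons. In the order wts-, optix and MARCM, Eip74EF, an ETS factor gene of the early puffs, had log2 changes of -0.10, 0.54 and -0.35, and the receptor gene Hr39 -0.57, -0.16 and -0.51. In the same order the zinc finger gene Kr-h1 had -0.36, -0.41 and -0.44, the transporter gene E23 -0.63, -0.99 and 0.14, and the zinc finger gene crol -0.24, 0.22 and 0.16.

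**Figure D2:**
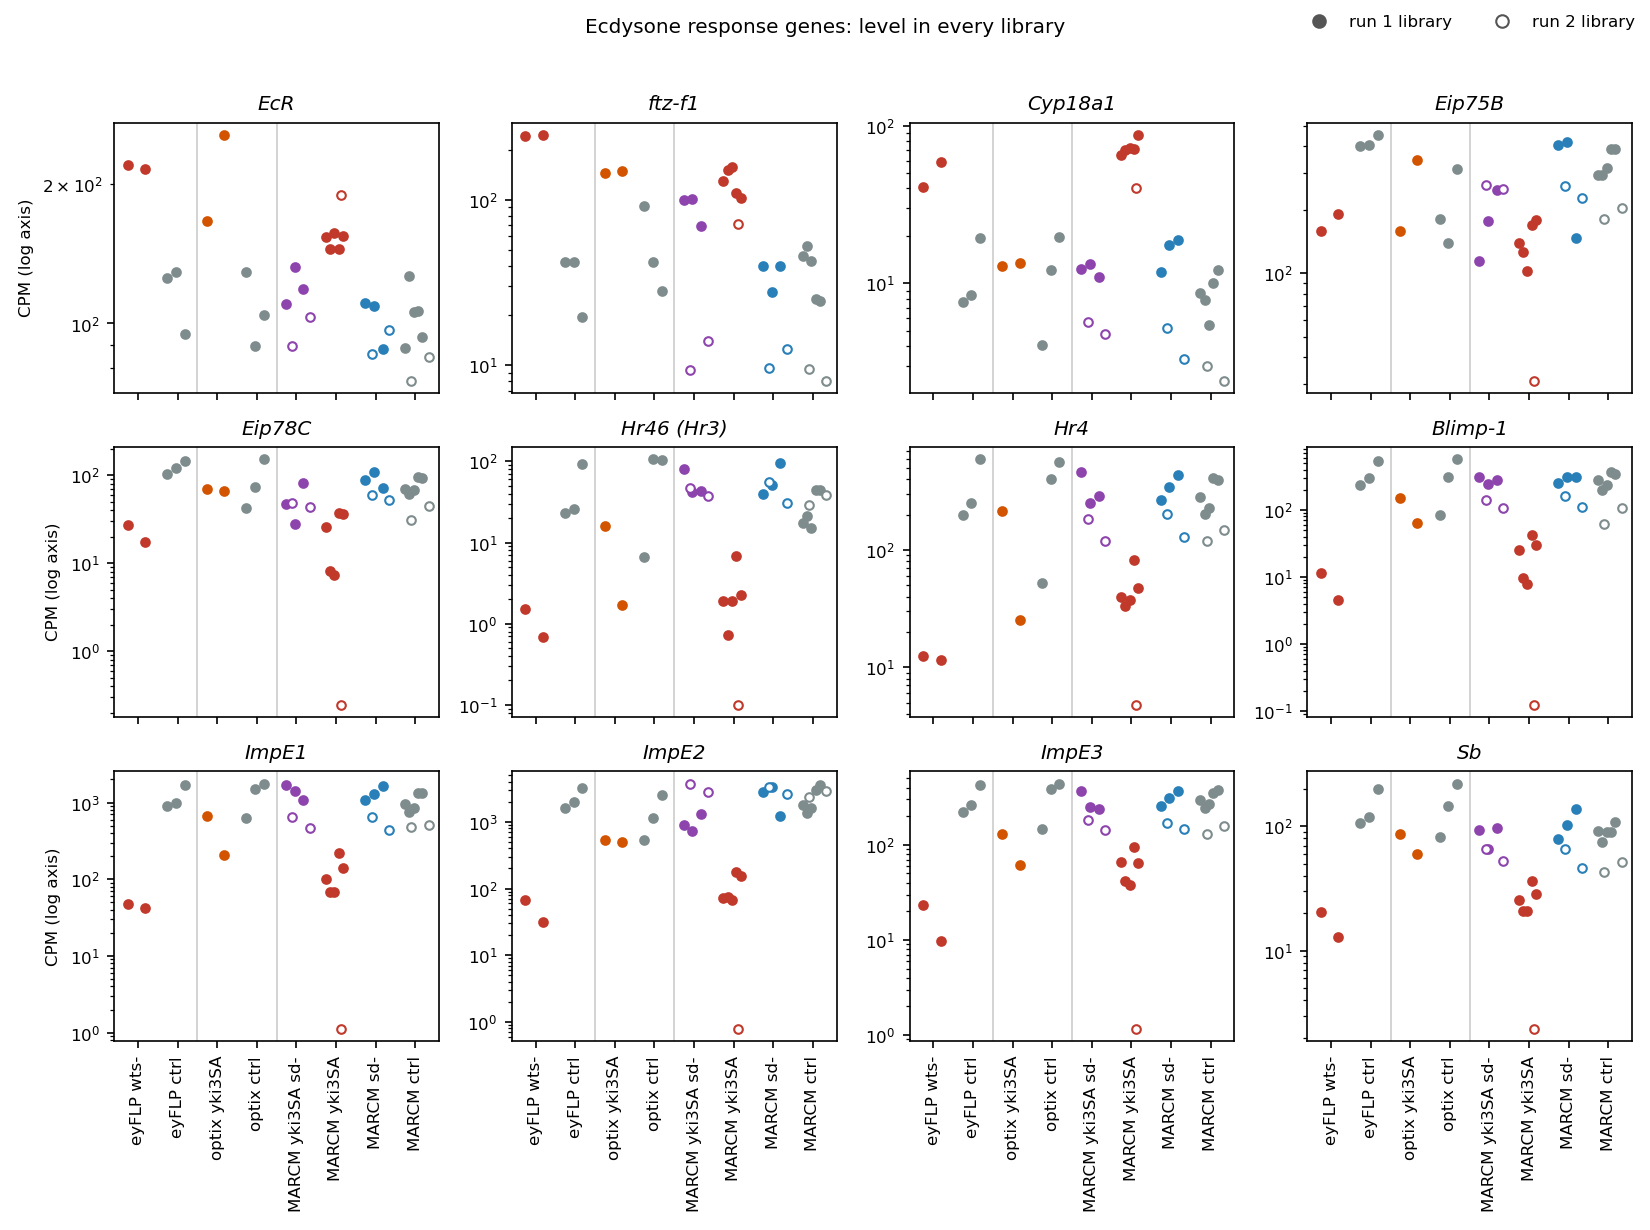
Levels of 12 members in every library, in CPM on a log axis, with 1 panel per gene, filled points for run 1 and open points for run 2; values under 0.1 CPM are drawn at 0.1. EcR, ftz-f1 and Cyp18a1 sit higher and the other 9 genes lower in MARCM yki3SA and wts- discs than in their controls, while optix libraries of the 9 genes spread widely.

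Of the other early inducible products, the 3 ImpE genes fell and Cyp18a1 rose in both wts- and MARCM yki3SA discs. ImpE1, which encodes a membrane protein related to the LDL receptor family, had 47.8 and 41.6 CPM in wts- discs against 912, 989 and 1702 CPM in eyFLP ctrl discs. In discs with MARCM yki3SA it had 99.99, 67.4, 67.9, 219 and 139.8 CPM, against 966, 751, 836, 1324 and 1343 CPM in MARCM ctrl discs of run 1. In run 2 it had 1.11 CPM in the yki3SA library against 478 and 513 CPM in the ctrl libraries. These groups were fully apart in each case, with changes of -4.75 ± 0.70 (SE, edgeR adjusted p = 6.92e-05) in wts- discs and -3.47 ± 0.51 (SE, edgeR adjusted p = 8.63e-06) in MARCM yki3SA discs.

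ImpE2, which encodes a secreted protein at the apical surface of discs, was among the genes with the widest change. It had 68.5 and 31.0 CPM in wts- discs against 1589.7, 1947 and 3222 CPM in eyFLP ctrl discs. MARCM yki3SA discs had 72.4, 75.5, 67.3, 175 and 155 CPM against 1775, 1356, 1628, 3041 and 3525 CPM in MARCM ctrl discs of run 1, and 0.782 CPM against 2372 and 2879 CPM in run 2. No Yki-activated library came near its controls in these 2 models. The log2 fold change was -5.51 ± 0.78 (SE, edgeR adjusted p = 4.85e-05) in wts- discs and -4.53 ± 0.68 (SE, edgeR adjusted p = 1.37e-05) in MARCM yki3SA discs. ImpE3 had 23.04 and 9.64 CPM in wts- discs against 222, 265 and 428 CPM in eyFLP ctrl discs. With MARCM yki3SA the level was 66.0, 41.4, 37.8, 94.8 and 64.0 CPM, against 299, 244, 266, 354 and 376 CPM in MARCM ctrl discs of run 1. It was the ImpE gene that also passed in the optix model, with 129 and 61.2 CPM in optix yki3SA discs, both under the 145, 390.3 and 439 CPM of optix ctrl discs. Its changes were -4.23 ± 0.60 (SE, edgeR adjusted p = 4.42e-05), -2.57 ± 0.42 (SE, edgeR adjusted p = 3.55e-05) and -1.77 ± 0.51 (SE, edgeR adjusted p = 0.0234) in the wts-, MARCM and optix comparisons, and the optix call was lost without optix ctrl replicate 2 or 3 or optix yki3SA replicate 2. The last 1000 bases of ImpE3 overlap CG2747 on the same strand, so the 2 genes may share counts.

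Cyp18a1 encodes the cytochrome P450 that inactivates ecdysteroids and is itself induced by them. It had 41.0 and 58.6 CPM in wts- discs against 7.63, 8.47 and 19.3 CPM in eyFLP ctrl discs. In run 1 it had 65.1, 70.3, 72.6, 71.1 and 87.0 CPM in MARCM yki3SA discs against 8.63, 7.86, 5.47, 10.1 and 12.2 CPM in MARCM ctrl discs. In run 2 it had 40.4 CPM in the yki3SA library against 3.00 and 2.42 CPM in the ctrl libraries. The wts- and MARCM yki3SA libraries were all above their controls. In optix yki3SA discs it had 12.9 and 13.4 CPM, inside the 4.05 to 19.8 CPM of optix ctrl discs. The change was 2.07 ± 0.44 (SE, edgeR adjusted p = 0.00174) in wts- discs, 3.29 ± 0.19 (SE, edgeR adjusted p = 9.59e-12) in MARCM yki3SA discs and 0.13 ± 0.47 (SE, edgeR adjusted p = 0.872) in optix yki3SA discs. The test of MARCM yki3SA against optix yki3SA gave a difference of 2.91 ± 0.59 (SE, edgeR adjusted p = 0.00235), and that of wts- against optix yki3SA a difference of 1.94 ± 0.65 (SE, edgeR adjusted p = 0.0843).

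The 4 remaining early products gave 1 call in these 3 comparisons. Eip55E, which encodes cystathionine gamma-lyase, passed in the optix model alone of the 3 (47.1 and 72.7 CPM in optix yki3SA discs against 30.1, 21.0 and 46.4 CPM in optix ctrl discs, change 0.87 ± 0.25 SE, edgeR adjusted p = 0.0174). The groups lay next to each other without overlap, and the call was lost without optix ctrl replicate 1 or 2 or optix yki3SA replicate 2. Eip63E, a cyclin-dependent kinase gene, had log2 changes of -0.09, -0.26 and 0.03 in the wts-, optix and MARCM comparisons. Eip71CD, which encodes methionine sulfoxide reductase A, had 1.48 and 20.1 CPM in optix yki3SA discs against 1.45, 2.25 and 5.28 CPM in optix ctrl discs, a change of 1.85 ± 0.78 (SE, edgeR adjusted p = 0.11). The 2 optix yki3SA libraries lay on either side of all but the lowest control, and the value was -1.01 without optix yki3SA replicate 2 and 2.72 without replicate 1. Eip63F-1, a calcium-binding protein gene, averaged at most 0.620 CPM over the libraries of any group.

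Of the 6 late and tissue effectors, Sb and Fbp1 fell in both wts- and MARCM yki3SA discs. Sb encodes a transmembrane serine protease needed for leg disc eversion. It had 20.5 and 12.8 CPM in wts- discs against 107, 118 and 199 CPM in eyFLP ctrl discs. MARCM yki3SA discs had 25.6, 21.0, 20.7, 36.3 and 28.7 CPM against 91.2, 74.1, 89.6, 90.3 and 108 CPM in MARCM ctrl discs of run 1. In run 2 it had 2.35 CPM in the yki3SA library against 43.1 and 51.5 CPM in the ctrl libraries. These groups were apart in each case, with changes of -3.09 ± 0.41 (SE, edgeR adjusted p = 1.3e-05) in wts- discs and -1.96 ± 0.29 (SE, edgeR adjusted p = 1.07e-05) in MARCM yki3SA discs. The 3' end of Sb overlaps Mic26-27 on the opposite strand.

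Fbp1, a fat body gene for the receptor that takes up storage proteins, was sparse in these discs. It had 0 and 0.344 CPM in wts- discs, 3 counts in all, against 1.32, 6.21 and 2.29 CPM in eyFLP ctrl discs, 84 counts in all. Scaled for depth, that is a ratio of 0.0496 with a 95% exact interval of 0.01 to 0.15 for counting error only (edgeR adjusted p = 0.0186). MARCM yki3SA discs had 0, 0.121, 0.190, 0.613 and 0.717 CPM against 1.39, 10.4, 1.31, 4.92 and 3.35 CPM in MARCM ctrl discs of run 1, a fitted change of -4.29 ± 1.05 (SE, edgeR adjusted p = 0.00244) over both runs. In run 2 the yki3SA library had 0.782 CPM, against 65.2 and 7.88 CPM in the ctrl libraries, which differ widely from each other. The wts- call of Fbp1 was lost without wts- replicate 1, without eyFLP ctrl replicate 2 and in a fit of all 33 libraries. The sum of 8 fat body markers, of which Apoltp and CG3604 were at 0 in many libraries, was 15.29 to 32.81 CPM in MARCM yki3SA discs against 45.01 to 286.7 CPM in MARCM ctrl discs of run 1, and 37.85 to 45.88 CPM in wts- discs against 26.97 to 148.2 CPM in eyFLP ctrl discs. Its part in the level of Fbp1 was not tested. Fbp2, another fat body gene, had changes of -2.58 ± 1.12 (SE, edgeR adjusted p = 0.117), -0.26 ± 1.09 (SE, edgeR adjusted p = 0.897) and -0.89 ± 0.84 (SE, edgeR adjusted p = 0.461) in the wts-, optix and MARCM comparisons. The cuticle protein gene Edg91 fell in optix yki3SA discs (0.269 and 0.199 CPM, 4 counts in all, against 3.28, 4.01 and 1.29 CPM and 71 counts in optix ctrl discs, change -3.54 ± 0.66 SE, edgeR adjusted p = 0.000512) and in MARCM yki3SA discs (-0.90 ± 0.33 SE, edgeR adjusted p = 0.0378). The MARCM call of Edg91 was lost with the replicate block (change -0.89, adjusted p = 0.0855), in each run alone, and without each of 8 libraries. Edg78E, another cuticle protein gene, had -1.15 ± 0.80 (SE, edgeR adjusted p = 0.36), -3.04 ± 1.196 (SE, edgeR adjusted p = 0.0801) and -0.98 ± 0.43 (SE, edgeR adjusted p = 0.0811) in the wts-, optix and MARCM comparisons. Its optix groups, which did not overlap, held 1 count in all in optix yki3SA discs against 15 counts in optix ctrl discs.

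In the optix model the control libraries differed among themselves more than in the other models. Over the 25 members with at least 10 CPM on average in optix ctrl discs, the highest library was a median of 2.26 times the lowest, and 15 of the 25 differed at least 2-fold. In eyFLP ctrl discs the median was 1.41 with 8 of 26 members at 2-fold or more, and in MARCM ctrl discs of run 1 it was 1.61 with 7 of 26. Hr46 had 16.1 and 1.69 CPM in optix yki3SA discs against 6.66, 105 and 104 CPM in optix ctrl discs, a 15.8-fold range within the controls. Hr4 had 216 and 25.1 CPM in optix yki3SA discs against 52.7, 401 and 563 CPM in optix ctrl discs. In the same groups Blimp-1 had 149 and 63.4 CPM against 83.2, 313 and 567 CPM, and ImpE1 670.0 and 205 CPM against 635, 1520.3 and 1759 CPM. In each of the 4 genes control replicate 1 was the lowest control, and the 2 yki3SA libraries differed from each other, so that the groups overlapped. Their changes were -3.06 ± 1.14 (SE, edgeR adjusted p = 0.0728), -1.49 ± 0.86 (SE, edgeR adjusted p = 0.25), -1.60 ± 0.74 (SE, edgeR adjusted p = 0.146) and -1.57 ± 0.58 (SE, edgeR adjusted p = 0.0732), all below 0 and none called. ImpE2 had 529 and 493 CPM in optix yki3SA discs, both just under the lowest of the 539, 1154 and 2500.3 CPM of optix ctrl discs, a change of -1.46 ± 0.63 (SE, edgeR adjusted p = 0.118). Sb had -1.03 ± 0.36 (SE, edgeR adjusted p = 0.0517).

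The optix count depended on single libraries. So did the count of all genes called, which moved both below and above its main value of 1699 as libraries were left out. Without optix ctrl replicate 1, 11 members passed, now also Hr46, ImpE1, ImpE2, Blimp-1, Sb and E23, all lower in optix yki3SA discs. Without optix yki3SA replicate 1, 10 passed, and without optix ctrl replicate 2 or optix yki3SA replicate 2, 2 passed. DESeq2 called 9 members, including Hr46, ImpE1 and Sb, and 1892 of all genes. Of the 6 optix calls, those of EcR and Edg91 were kept in every alternative run, and those of ftz-f1, ImpE3, vri and Eip55E were each lost under some. The difference between the wts- and optix changes was below 0 and called for 6 members, ImpE2 (-4.05 ± 0.89 SE, edgeR adjusted p = 0.00894), Blimp-1 (-3.89), ImpE1 (-3.18), ImpE3 (-2.45), Sb (-2.05) and Eip75B (-1.51), where 8.19% of all genes passed (3.36% above 0 and 4.83% below). That between the MARCM yki3SA and optix changes was called for 5, ImpE2 (-2.90 ± 0.73 SE, edgeR adjusted p = 0.013), Eip75B (-1.45) and Eip55E (-1.22) below 0, and Cyp18a1 (2.91) and Edg91 (2.64) above 0, where 15.8% of all genes passed (8.02% above 0 and 7.75% below). With single libraries left out in turn, these counts ran from 0 to 8 and from 2 to 8, the lowest of the wts- and optix difference being without wts- replicate 2. All 6 calls of the wts- and optix difference were lost under at least 1 alternative, and of the other 5 the call of Cyp18a1 was kept under all of them.

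**Figure D3:**
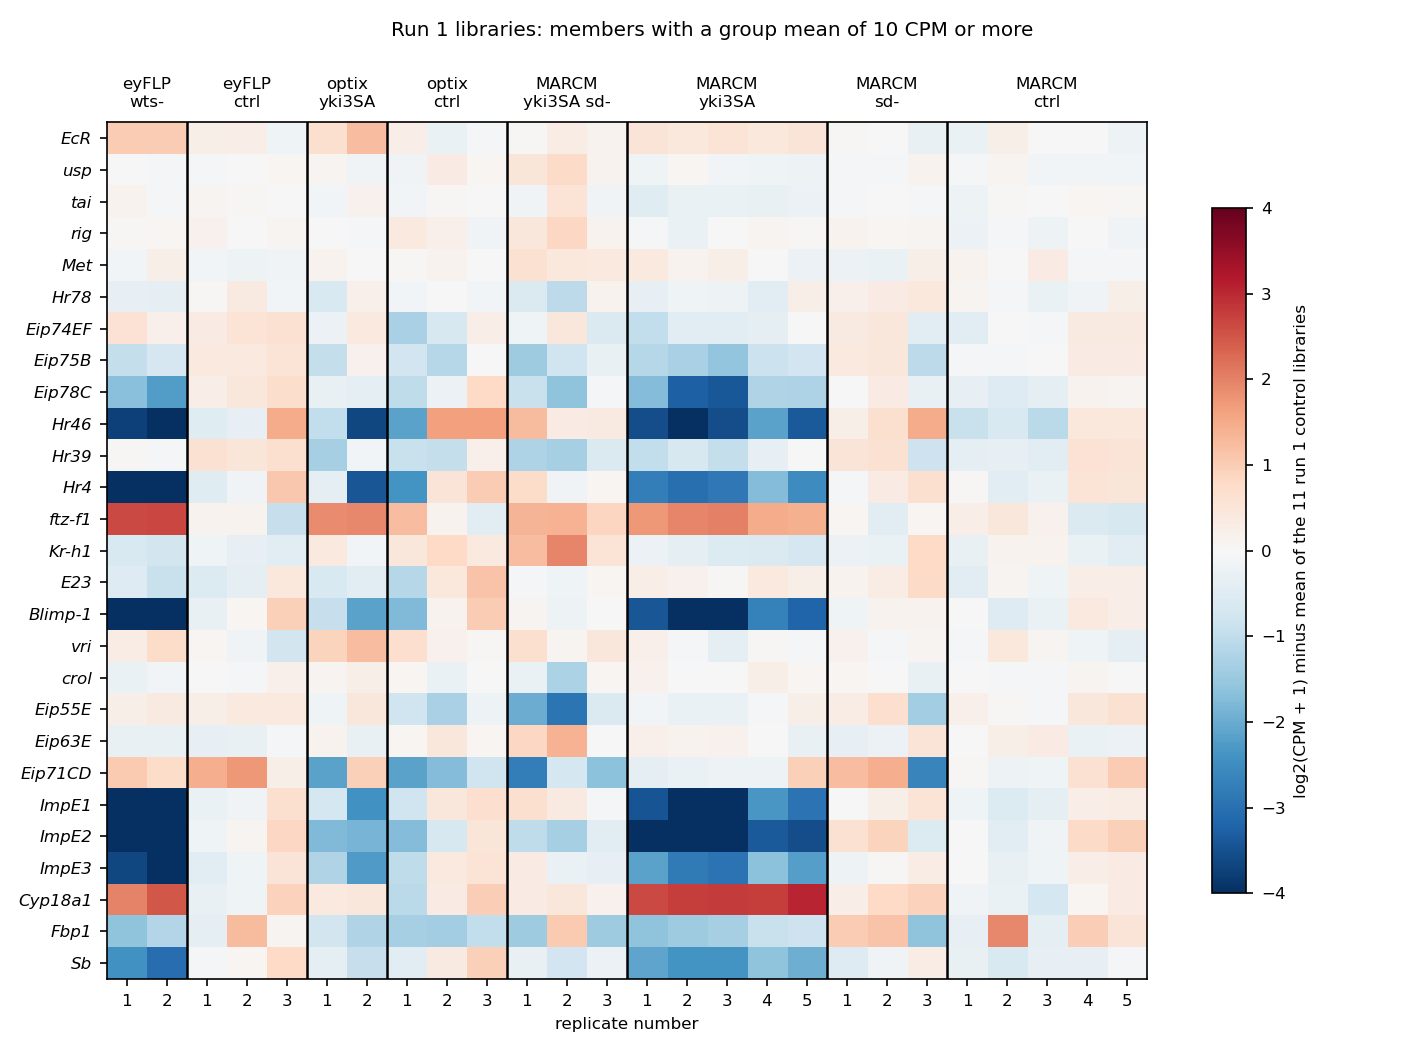
Levels of the 27 members with a group mean of at least 10 CPM over both runs (rows) in the 26 libraries of run 1 (columns), as log2(CPM + 1) minus the mean of the 11 control libraries of run 1, with colours ending at 4. Fbp1, whose highest group mean in run 1 is 4.283 CPM, is included through run 2, and Fbp2, at 13.17 CPM in run 1, is not. Optix ctrl replicate 1 is lower than the other optix controls in Hr46, Hr4, Blimp-1 and the ImpE genes, and the wts- and MARCM yki3SA libraries are low in the same rows.

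Loss of sd in discs without the transgene gave no call among the members, and in libraries labelled yki3SA sd- 15 members were higher than in yki3SA discs, with no member called between them and sd- discs over both runs. In sd- discs against MARCM ctrl discs, 0 of 33 members passed in edgeR (2 at an unadjusted p under 0.05, and 0 by DESeq2), where 0.101% of all genes passed (0.0784% higher and 0.0224% lower). In the libraries labelled yki3SA sd-, set against sd-, 0 of 33 passed in edgeR (9 at an unadjusted p under 0.05, and 1, Kr-h1, by DESeq2), where 0.134% of all genes passed (0.0336% higher and 0.101% lower). Against yki3SA discs, 18 of 33 members passed (54.5%), 15 higher and 3 lower, where 53% of all genes passed, 24.9% higher and 28.1% lower. Of the 18, 15 were called in run 1 alone. In run 2 alone 16 were called, but there the comparison is with 1 yki3SA library, assumed to vary like the other groups, and cannot be told apart from the change of chromosome arm and driver. All 18 had the same direction in each run. Markers of cell types changed in the same comparison, with 8 of 8 eye disc, 4 of 5 antennal disc, 6 of 7 hemocyte and 5 of 6 ring gland markers tested higher, and 3 of 5 tracheal markers lower and 1 higher. In run 1 the eye disc markers summed to 1319 to 1784 CPM in discs labelled yki3SA sd- against 379 to 440.9 CPM in yki3SA discs, and the hemocyte markers to 199.6 to 459.4 CPM against 14.08 to 23.69 CPM. Their part in the members' calls was not tested. The difference between libraries labelled yki3SA sd- and sd- was itself unlike that between yki3SA and ctrl for 13 members in the interaction test (39.4%), 10 above 0 and 3 below, where 27.9% of all genes passed, 15% above 0 and 13% below. Over all genes that split was 1337 above 0 and 1157 below, and 1552 and 805 with upper-quartile scaling, while the members' split was the same under both. These 3 comparisons share the yki3SA or the sd- libraries and are no independent evidence for each other.

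Hr46 had 80.8, 41.6 and 42.7 CPM in discs labelled yki3SA sd- of run 1 against 1.88, 0.728, 1.90, 6.75 and 2.27 CPM in yki3SA discs, and 46.6 and 37.7 CPM against 0 CPM in run 2. In sd- discs it had 39.3, 51.6 and 94.4 CPM in run 1 and 55.5 and 30.4 CPM in run 2, a range that overlaps the discs labelled yki3SA sd-. The log2 change was 4.55 ± 0.60 (SE, edgeR adjusted p = 1.98e-06) against yki3SA discs and -0.10 ± 0.51 (SE, edgeR adjusted p = 0.913) against sd- discs, and the interaction was 3.70 ± 0.76 (SE, edgeR adjusted p = 0.000855). Blimp-1 had 306, 247 and 282 CPM in discs labelled yki3SA sd- of run 1, where sd- discs had 253, 313 and 312 CPM and yki3SA discs at most 42.9 CPM. It changed by 3.99 ± 0.54 (SE, edgeR adjusted p = 3.1e-06) against yki3SA discs, with an interaction of 3.66 ± 0.69 (SE, edgeR adjusted p = 0.000374).

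ImpE2 had 892, 715 and 1308 CPM in discs labelled yki3SA sd- of run 1 against 2755, 3325 and 1237 CPM in sd- discs, and 3715 and 2813 CPM against 3346 and 2618 CPM in run 2. All lay far above the yki3SA libraries, and in run 1 the sd- discs were split between replicate 3 and the other two. The change of ImpE2 was 4.07 ± 0.73 (SE, edgeR adjusted p = 9.21e-05) against yki3SA discs, and its interaction was 3.96 ± 0.93 (SE, edgeR adjusted p = 0.0028). ImpE1 (3.53 ± 0.70 SE, edgeR adjusted p = 0.000577), Hr4 (2.75 ± 0.45 SE, edgeR adjusted p = 6.98e-05), ImpE3 (2.54 ± 0.60 SE, edgeR adjusted p = 0.00273) and Sb (1.83 ± 0.42 SE, edgeR adjusted p = 0.00231) also had interactions above 0. Of the nuclear receptor genes, Eip78C and Eip75B were higher in discs labelled yki3SA sd- than in yki3SA discs (1.75 ± 0.56 SE, edgeR adjusted p = 0.0132 and 0.93 ± 0.34 SE, edgeR adjusted p = 0.0271), but their interactions of 1.41 ± 0.74 (SE, edgeR adjusted p = 0.156) and 0.86 ± 0.45 (SE, edgeR adjusted p = 0.152) did not pass. The call of Eip75B was lost in run 1 alone, where discs labelled yki3SA sd- had 114, 176 and 248 CPM, overlapping the yki3SA discs, and without any of 3 run 2 libraries.

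**Figure D4:**
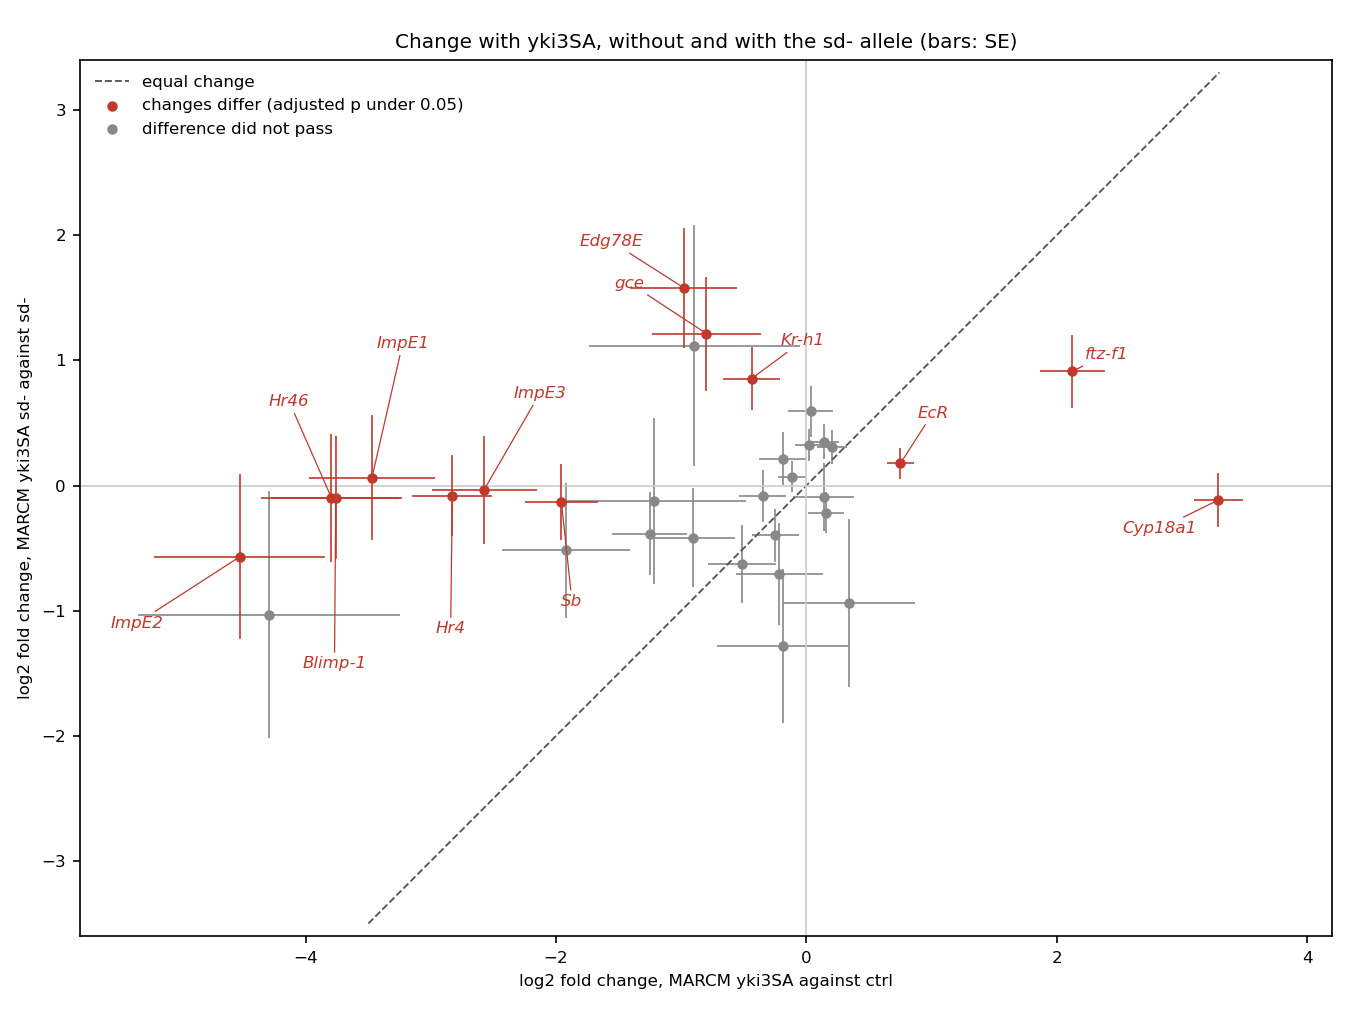
Log2 fold change of each member in MARCM yki3SA against ctrl discs (x axis) and in discs labelled yki3SA sd- against sd- discs (y axis), with bars of 1 SE and red points where the interaction passed an adjusted p of 0.05. The 5 members furthest left, led by ImpE2 and Fbp1, lie between -1.03 and 0.06 on the y axis, and Cyp18a1, furthest right, lies at -0.12.

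The 3 members that rose with MARCM yki3SA, namely Cyp18a1, EcR and ftz-f1, were all lower in discs labelled yki3SA sd- than in yki3SA discs. The call of ftz-f1 was lost in run 1 alone (-0.57, edgeR adjusted p = 0.0759), and its change in run 2 was -2.48. Cyp18a1 had 12.4, 13.4 and 10.9 CPM in discs labelled yki3SA sd- of run 1 against 11.8, 17.5 and 18.9 CPM in sd- discs, and 5.71 and 4.77 CPM against 5.24 and 3.296 CPM in run 2. It changed by -2.66 ± 0.22 (SE, edgeR adjusted p = 1.78e-09) against yki3SA discs, and its interaction was -3.41 ± 0.29 (SE, edgeR adjusted p = 1.39e-08). EcR had 110.0, 132 and 119 CPM in discs labelled yki3SA sd- of run 1 and 89.3 and 103 CPM in run 2, all below the yki3SA discs, a change of -0.54 ± 0.12 (SE, edgeR adjusted p = 0.000748) and an interaction of -0.57 ± 0.16 (SE, edgeR adjusted p = 0.0109). The interaction of EcR was lost in run 1 alone (-0.32, adjusted p = 0.211) and without sd- replicate 1 or 2.

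For ftz-f1 the runs differed. Libraries labelled yki3SA sd- had 99.3, 102 and 69.2 CPM in run 1, all above the 39.9, 27.5 and 40.0 CPM of sd- discs and all below the lowest yki3SA library of run 1, at 103 CPM. In run 2 they had 9.32 and 13.9 CPM, level with the 9.57 and 12.5 CPM of sd- discs and far under the 71.1 CPM of the yki3SA library. Over both runs the interaction was -1.21 ± 0.39 (SE, edgeR adjusted p = 0.0234), against -0.46 in run 1 alone (adjusted p = 0.355) and -2.82 in run 2 alone, and the call was lost without sd- replicate 1 (highest adjusted p 0.0539). Against sd- discs, the change of ftz-f1 was 0.91 ± 0.29 (SE, edgeR adjusted p = 0.18) over both runs and 1.34 in run 1 alone (adjusted p = 0.0291).

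Kr-h1, the juvenile hormone-inducible gene, had 306, 503 and 188 CPM in discs labelled yki3SA sd- of run 1 against 109, 101, 88.4, 87.1 and 81.1 CPM in yki3SA discs, and 54.3 and 48.2 CPM against 20.1 CPM in run 2. In sd- discs it had 109, 107 and 225 CPM in run 1 and 43.1 and 41.5 CPM in run 2. It was thus above the yki3SA discs in both runs, a change of 1.57 ± 0.24 (SE, edgeR adjusted p = 1.72e-05), and the interaction was 1.29 ± 0.34 (SE, edgeR adjusted p = 0.00608). Against sd- discs its change was 0.85 ± 0.25 (SE, edgeR adjusted p = 0.18), called in run 1 alone (1.19, adjusted p = 0.035) and by DESeq2. The juvenile hormone receptor gene gce, at 3.27, 9.05 and 2.50 CPM in discs labelled yki3SA sd- of run 1 against 1.25, 2.06, 0, 1.53 and 0.358 CPM in yki3SA discs, changed by 2.03 ± 0.46 (SE, edgeR adjusted p = 0.00103), and its interaction of 2.01 ± 0.62 (SE, edgeR adjusted p = 0.0197) was lost in run 1 alone. usp had 59.0, 71.3 and 45.7 CPM in discs labelled yki3SA sd- of run 1 and 52.4 and 49.2 CPM in run 2, a change of 0.35 ± 0.12 (SE, edgeR adjusted p = 0.0196) against yki3SA discs that was lost in run 2 alone. vri (0.56 ± 0.21 SE, edgeR adjusted p = 0.0292) and Eip63E (0.61 ± 0.20 SE, edgeR adjusted p = 0.0135) were also higher in discs labelled yki3SA sd- than in yki3SA discs, and the calls of both and of usp were lost with the replicate block. That of vri was also lost in run 1 alone (0.43, edgeR adjusted p = 0.0547). Edg78E, at no more than 4.12 CPM in any library, had 1.62 ± 0.46 (SE, edgeR adjusted p = 0.00576), lost in run 2 alone.

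In run 1 alone, 7 members were called between yki3SA sd- and sd- discs, where 1429 of all genes were called, against 12 over both runs. Among the 7 were Eip55E (-1.63, adjusted p = 0.0401), Eip71CD (-2.73, adjusted p = 0.0435), Hr39 (-1.24, adjusted p = 0.0417), ImpE2 (-1.33, adjusted p = 0.0495) and usp (0.50, adjusted p = 0.048). In run 2 alone, the log2 changes of Eip63E and Eip55E were both 0.27, so that Eip55E had opposite directions in the runs. In run 1, Eip55E had 12.6, 6.11 and 35.0 CPM in discs labelled yki3SA sd- against 65.1, 84.2 and 19.5 CPM in sd- discs, and Eip71CD had 0.606, 5.66 and 2.50 CPM against 24.3, 28.8 and 0.760 CPM. The lowest sd- library was replicate 3 for both. The same run 1 libraries were low in yki tags, and hemocyte markers summed to 199.6 to 459.4 CPM in discs labelled yki3SA sd- against 56.54 to 130.6 CPM in sd- discs of run 1, with NimC4 at 0 in 31 of the 33 libraries. The part of either in these results was not tested.

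Of the 14 members called in MARCM yki3SA discs over both runs, 13 were called in run 1 alone, and all 14 had the same direction in each run. Run 2 holds 1 yki3SA library, so the fit of run 2 alone, which called 12 of the 14, takes its spread from the other groups and assumes that this library varies like them. Edg91 was called in neither, and Fbp1 was not called in run 2. The log2 change in run 2, which had 1 yki3SA library, was -11.80 for ImpE2, -2.73 for Eip75B and 3.80 for Cyp18a1. In run 1 it was -4.36, -1.21 and 3.06 for these genes.

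Genes of the wider pathway, from lists of genes that are no members unless said, are given beside the share of all genes that passed, which was 24% in wts- discs, 19.5% in optix yki3SA discs and 34.4% in MARCM yki3SA discs. Of 15 other ecdysone-inducible genes tested, 12 passed in wts- discs (5 higher, 7 lower), 6 in optix yki3SA discs (1 higher, 5 lower) and 12 in MARCM yki3SA discs (3 higher, 9 lower), which is 80%, 40% and 80% of the list. Eip93F, a late gene that directs the adult programme, fell by all 3 tests, at -5.05 ± 0.59 (SE, edgeR adjusted p = 1.57e-06), -2.55 ± 0.49 (SE, edgeR adjusted p = 0.000824) and -2.50 ± 0.33 (SE, edgeR adjusted p = 2.6e-06) in the wts-, optix and MARCM comparisons. br, which encodes the Broad factors of the early puffs, had 1139.7 ± 32.6 CPM in wts- discs against 1968 ± 186 CPM in eyFLP ctrl discs (SD, n = 2 and 3). Its changes were -0.79 ± 0.14 (SE, edgeR adjusted p = 0.000219), -0.32 ± 0.14 (SE, edgeR adjusted p = 0.117) and -0.82 ± 0.21 (SE, edgeR adjusted p = 0.00295). ImpL1, an imaginal disc late gene, changed by -3.76, -2.97 and -2.19, and the matrix metalloproteinase gene Mmp2 by -3.61, -3.38 and -2.67, all called. Mmp1 rose in wts- discs (3.82 ± 0.26 SE, edgeR adjusted p = 4.69e-10) and in MARCM yki3SA discs (1.91 ± 0.28 SE, edgeR adjusted p = 1.02e-05).

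Of 7 other nuclear receptor genes, 5 passed in wts- discs (3 higher, 2 lower), 4 in optix yki3SA discs (all higher) and 5 in MARCM yki3SA discs (3 higher, 2 lower). The highest change was that of eg, at 4.43 in wts- discs and 2.76 in optix yki3SA discs, while svp was -4.23 in wts- discs. Of 10 coregulator genes, 2 passed in wts- discs, 4 in optix yki3SA discs and 3 in MARCM yki3SA discs, and all but 1 of these 9 calls were lower. These are 20%, 40% and 30% of the list, under the share of all genes in wts- and MARCM yki3SA discs. DOR, which encodes a cofactor of the receptor, had -1.67 ± 0.11 (SE, edgeR adjusted p = 1.14e-10) in wts- discs and -1.71 ± 0.11 (SE, edgeR adjusted p = 2.58e-10) in optix yki3SA discs.

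Genes of ecdysteroid synthesis, conversion and import, most of them genes of the ring gland, gave 1 call of 11 in wts- discs (mld, 0.60), 2 of 11 in optix yki3SA discs and 1 of 14 in MARCM yki3SA discs (mld, 1.44). In yki3SA sd- against yki3SA discs 9 of 14 passed (64.3%, where 53% of all genes passed), 8 higher, led by dib (3.52) and spok (3.41). The 6 ring gland markers, which include both genes, summed to 798.3 to 926.3 CPM in discs labelled yki3SA sd- of run 2 against 49.74 CPM in the yki3SA library, with 510.9 to 703.8 CPM in sd- discs of run 2. In run 1 the sums overlapped, at 8.372 to 133.4 CPM in discs labelled yki3SA sd- against 5.132 to 28.79 CPM in yki3SA discs, and their part in these calls was not tested. Of 9 juvenile hormone genes tested in the wts- and optix models, a list that also holds the members Met, gce and Kr-h1, 3 passed in each, all higher, with Chd64 at 2.20 ± 0.36 (SE, edgeR adjusted p = 0.000187) in wts- discs. No gene of these 5 lists passed in sd- against ctrl discs or in yki3SA sd- against sd- discs.

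In the BDGP6 annotation, EcR lies on 2R from 6087873 to 6169087 on the minus strand and Cyp18a1 on X from 18688538 to 18693042 on the minus strand. Hr46 lies on 2R from 10203995 to 10237348 on the minus strand and Blimp-1 on 3L from 5630983 to 5652094 on the plus strand. ftz-f1 lies on 3L from 18750607 to 18801309 on the minus strand and ImpE2 on 3L from 3510974 to 3512681 on the minus strand. All 6 are protein-coding genes. The members were spread over 5 chromosome arms of the dm6 genome, 8 on 2L, 4 on 2R, 13 on 3L, 4 on 3R and 5 on X. ImpE2 lies 3.1 kb from Eip63E on 3L, yet ImpE2 fell in wts- and MARCM yki3SA discs while Eip63E passed in neither. Hr4 lies 30.8 kb from usp on X and Eip78C 30.3 kb from Edg78E on 3L, and here too the first of each pair passed in both comparisons and the other in neither. Same-strand overlaps in the last 1000 bases, where 3' tags fall, were found for usp with Actn, Kr-h1 with CG45075, ImpE3 with CG2747 and Fbp2 with CG42847, and counts of these members could include the neighbour.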

How the data were processed

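Per the labels' protocols, RNA of eye-antennal discs was extracted with an RNeasy-type kit and 3' end libraries were made (QuantSeq, forward). Per the submitters' processing notes, cutadapt, FastQC and STAR 2.6.1d were used with the dm6 genome. No counting tool, annotation or strand setting is given in the sources used here. The deposited values are raw counts per gene. Members and lists were chosen with earlier results of these data known.

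Counts were tested with edgeR 4.0.16 (R 4.3.3; quasi-likelihood F test, robust, TMM scaling, filterByExpr with a minimum count of 10 and a total of 15), with Benjamini-Hochberg adjustment across every gene tested and a threshold of 0.05. One model held the 20 run 1 libraries of the eyFLP, optix, MARCM ctrl and MARCM yki3SA groups, and the other the 23 MARCM libraries with the run as a term, in which the single run 2 yki3SA library is assumed to vary like the others. The 10 comparisons comprised 7 between groups, counting the interaction, and 3 between models. Standard errors come from the F statistic. CPM used 1 set of TMM factors over all 33 libraries, from 4874192 to 19128356 counts per library, which set the precision. The model was also run on counts simulated from its own dispersions, with no run effect and no library set apart. That checks the code and cannot show how the model handles the uneven groups here.

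Values by library were given for members called in 1 of the first 7 comparisons with a highest group mean of at least 10 CPM, except Eip63E. For some of these members, such as Kr-h1, they do not cover every group. Other pathway genes were limited to 4 called genes per list and comparison, plus br and Eip93F. Titles number the replicates. Same-numbered MARCM yki3SA and ctrl libraries of run 1 deviated together (r = 0.179, 0.113, 0.168, 0.184 and 0.349). Libraries with different numbers were not compared in this way, so pairing by number is not shown. The main fit held no term for pairs, and a replicate block was used as an alternative. No 2 replicates agreed within sampling noise (37 pairs, chi-square per degree of freedom at least 2.154). Results were recomputed with upper-quartile or DESeq2-type scaling, without a filter, with DESeq2 1.42.0, with all 33 libraries in 1 fit, with only the groups compared, with a replicate block, with each run alone (run 2 alone was added after seeing the data) and each library left out in turn. Gene positions come from the BDGP6 annotation, to which all 34 members matched. No sequences are shown.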

Additional observations from a re-analysis of the deposited data

Results flagged for a closer look

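In the run 1 groups of 5 MARCM libraries, 5 of 66 member-by-group sets had a library far from the others, where chance gives about 1 in 20 (3.3 of 66). Eip71CD had 19.8 CPM in yki3SA replicate 5, against 7.42 to 8.43 CPM in the others. Hr46 had 6.75 CPM in yki3SA replicate 4, against 0.728 to 2.27 CPM, still under every MARCM ctrl library. Fbp2 had 33.9 CPM in ctrl replicate 2, against 3.34 to 5.93 CPM. Hr38 had 1.54 CPM in ctrl replicate 4, against 0.861 to 0.9849 CPM. usp had 44.7 CPM in ctrl replicate 2, against 38.6 to 39.6 CPM.

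The log2 difference of libraries labelled yki3SA sd- from sd-, minus that of yki3SA from ctrl, passed edgeR's interaction test (adjusted p under 0.05) for 13 members. The yki tags of the run 1 libraries labelled yki3SA sd- go against that label. It was above 0 for ImpE2 (3.96), Hr46 (3.70), Blimp-1 (3.66), ImpE1 (3.53), Hr4 (2.75), Edg78E (2.56), ImpE3 (2.54), gce (2.01), Sb (1.83) and Kr-h1 (1.29). It was below 0 for Cyp18a1 (-3.41), ftz-f1 (-1.21) and EcR (-0.57). The log2 change in wts- discs minus that in optix yki3SA discs differed for ImpE2 (-4.05), Blimp-1 (-3.89), ImpE1 (-3.18), ImpE3 (-2.45), Sb (-2.05) and Eip75B (-1.51). The change in MARCM yki3SA discs minus that in optix yki3SA discs differed for Cyp18a1 (2.91), Edg91 (2.64), ImpE2 (-2.90), Eip75B (-1.45) and Eip55E (-1.22). Both differences rest on optix libraries that vary among themselves.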

How the results depend on the processing

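Of 6301 values of single members under an alternative, 6066 kept their side of the threshold, and their direction if called. Sign changes of values that stayed uncalled were not counted. Of the rest, 119 were no longer called, 105 became called in the same direction and 11 became called in the opposite direction. All 11 came from run 2 alone: Eip63E (-0.30) and E23 (-1.35) in MARCM yki3SA against ctrl, Eip55E (0.27) in yki3SA sd- against sd-, crol (0.18), Eip71CD (0.73) and Eip55E (0.44) in yki3SA sd- against yki3SA, and Hr39 (0.91), Eip71CD (0.40), Hr78 (1.11), E23 (1.68) and Eip55E (0.58) in the interaction. Run 2 alone called 23 members in MARCM yki3SA against ctrl, 2 in sd- against ctrl, 2 in yki3SA sd- against sd- and 22 in the interaction, and run 1 alone called 7 in yki3SA sd- against sd-. DESeq2 called 1 there and 2 in the difference of MARCM yki3SA and wts- (140 and 861 of all genes, against 12 and 740 in the main fit). All 33 libraries in 1 fit called 3 in the optix model, 0 in the difference of wts- and optix and 2 in that of MARCM and optix (853, 235 and 551 of all genes, against 1699, 712 and 1371). The groups compared alone, with fewer samples, called 2, 1 and, in the difference of MARCM and wts-, 3 (554, 393 and 989 of all genes). No filter on low counts, which tests more genes, called 3 in the difference of wts- and optix (630 of all genes). Other causes were not tested. The count of all genes called also moved with the library left out, in every comparison. Leaving out single libraries gave 2 to 11 members in the optix model, 0 to 8 and 2 to 8 in its differences from wts- and MARCM yki3SA, 11 to 14 in wts- discs, 13 to 14 in MARCM yki3SA discs, 18 to 20 in yki3SA sd- against yki3SA, 11 to 14 in the interaction, and 0 in the other 3 comparisons. The replicate block called 13 members in MARCM yki3SA against ctrl (losing Edg91) and 16 in yki3SA sd- against yki3SA (losing Eip63E, usp and vri and gaining Eip74EF, adjusted p = 0.0288). It lost ImpE3 in the difference of wts- and optix (adjusted p = 0.0639), gained Eip74EF in that of MARCM and optix (adjusted p = 0.0124), and changed no other call of a member. In comparisons other than MARCM yki3SA against ctrl, same-numbered libraries correlated at -0.413 to 0.285 in their deviations and were taken to share only a number. With 2 libraries in the wts- and optix yki3SA groups, changes there have wide errors, and members under about 10 CPM are limited by counts.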

Other observations

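Some members differed between the sequencing runs more than between groups. Hr78 had 124 to 129 CPM in MARCM ctrl discs of run 2 against 11.6 to 16.9 CPM in run 1, and Met had 12.6 to 13.9 CPM against 61.9 to 82.7 CPM. In sd- discs, whose genotype was the same in both runs, Hr78 had 121 to 128 CPM in run 2 against 16.5 to 19.3 CPM in run 1, and Met had 14.3 to 16.2 CPM against 55.0 to 78.6 CPM. The shift between runs was thus also present where the genotype did not change. Within run 2, Hr78 also differed between the yki3SA library (64.4 CPM) and the ctrl libraries (124 and 129 CPM), with no such difference in run 1 (10.04 to 16.8 CPM in yki3SA discs against 11.6 to 16.9 CPM in ctrl discs).

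In the 5 MARCM ctrl libraries of run 1, replicates 4 and 5, with 25.1 and 24.3 CPM of ftz-f1, had 44.03 and 43.9 CPM of Hr46 and 3041 and 3525 CPM of ImpE2, and replicates 1 to 3 had more ftz-f1 (42.9 to 52.9 CPM) and less Hr46 (14.9 to 21.0 CPM) and ImpE2 (1356 to 1775 CPM). In MARCM yki3SA discs of run 1, replicates 4 and 5 likewise had less ftz-f1 and more Hr46 and ImpE2 than replicates 1 to 3. The labels name no difference between these replicates, and the main fit held no term for it. This is a description of these libraries, not a test.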
